A study of Mus musculus with 12 samples.

Results

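The genes described here carry amino acids across membranes: the solute carrier families Slc1, Slc3, Slc7, Slc36, Slc38 and Slc43, measured by RNA sequencing in osteoclasts, immature dendritic cells and macrophages that were all grown from mouse bone marrow. Members were taken by name, as every gene whose symbol begins with one of these family names followed by "a" and a digit, and 45 of the 46072 genes listed in the authors' deposited table met that rule. Of the 45, 42 were carrier genes or their partner subunits and 3 were genes named for the strand opposite a carrier (Slc7a6os, Slc36a1os and Slc36a3os). The marrow came from C57/BL/6J mice aged 6 to 8 weeks, with no genetic change named for any group, and each cell type had 4 libraries, 12 in all. Osteoclasts, the bone-resorbing giant cells, were grown in RANKL at 50 ng/ml with M-CSF at 30 ng/ml after 5 days of precursor expansion in 100 ng/ml M-CSF, and mononucleated cells were removed from these cultures with Accutase. Immature dendritic cells, which sample antigen for presentation to T cells, were grown in 20 ng/ml GM-CSF. Macrophages were expanded like the osteoclast precursors and then kept in 30 ng/ml M-CSF alone. All 3 cell types differentiated in the same RPMI medium for isotope labelling, with 10% dialyzed serum, 0.4 mM lysine, 0.8 mM arginine, 2.4 mM proline and 2 mM glutamine, so the amino acids supplied did not differ by label. Per the labels, 4 separate marrow extractions were made and the cell types of an extraction came from the same mouse.

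Amino acid carriers work as uniporters, exchangers or symporters, and a cell combines several to keep its pools in balance. The Slc7 light chains Slc7a5, Slc7a6, Slc7a7, Slc7a8 and Slc7a11 reach the plasma membrane bound to the heavy chain Slc3a2 (4F2hc, CD98), while Slc7a9 pairs with Slc3a1. These light chains are mostly exchangers: they bring in leucine and other large neutral amino acids, basic amino acids or cystine against an outgoing amino acid. The exchangers draw on gradients made by sodium-coupled carriers such as those of Slc38 and Slc1, while members of Slc36 and Slc38 on the lysosome pass amino acids out of it and report them to the growth kinase mTORC1. In myeloid cells the inducible arginine carrier Slc7a2 is best known from macrophages treated with cytokines, where it feeds arginase and nitric oxide synthase.

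The authors' deposited table holds no values per library. Its mean normalised counts of all genes summed to 2.42e+07 in osteoclasts, 2.77e+07 in dendritic cells and 2.5e+07 in macrophages. Beside these means it lists, for each pair of cell types, the log2 fold change with raw and Benjamini-Hochberg adjusted p-values. A gene is called here where the authors' adjusted p was under 0.05, and ± beside a log2 fold change is the standard error that the authors' p-value implies. Folds are taken from the authors' log2 fold changes and not from the means. For Slc7a2 and Slc7a11 in the comparisons with dendritic cells they are smaller than the ratios of the printed means. Where the mean was at most 1000, whole reads in each of the 4 libraries could be worked back from the means. These are given as normalised reads in libraries a to d, letters that run by size factor within a cell type and match no replicate number. The 3 comparisons share their samples, so their values are set side by side and are not independent. As sums, the markers followed the labels. The 10 osteoclast markers summed to 332000 in osteoclasts, 41770 in dendritic cells and 6137 in macrophages. In osteoclasts against dendritic cells 7 of these 10 were called higher and 0 lower. Dcstamp, Ocstamp and Atp6v0d2 were not called. Their authors' means were 4231, 1589 and 17755 in osteoclasts and 7666, 2583 and 20465 in dendritic cells, per the authors' deposited table. The 10 dendritic cell markers summed to 9099 in osteoclasts, 481400 in dendritic cells and 5878 in macrophages. The 10 macrophage markers summed to 139200 in osteoclasts, 89640 in dendritic cells and 322300 in macrophages. In dendritic cells against macrophages 8 of these 10 were called lower and 0 higher. Fcgr1, not called, had authors' means of 2944 in dendritic cells and 1812 in macrophages, per the authors' deposited table. The dendritic cell cultures also held transcripts of granulocytes: 12 neutrophil markers summed to 535.7 in osteoclasts, 35130 in dendritic cells and 454.5 in macrophages, and 8 eosinophil markers to 400.1, 10370 and 183.8 in that order. The sums of 10 mast cell and basophil markers were 13.98, 955.8 and 12.41. In dendritic cells against macrophages 11 of the 12 neutrophil and 7 of the 8 eosinophil markers were higher. The neutrophil marker Mpo was not called. The eosinophil marker Ccr3 was called lower, with authors' means of 47.98 in dendritic cells and 126.4 in macrophages, per the authors' deposited table. Of the neutrophil markers 1 was at 0 in osteoclasts, none in dendritic cells and 2 in macrophages. In bulk RNA, fewer cells of a type and less RNA per cell cannot be told apart.

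Of the 45 members, 24 reached 1 CPM, taken of the summed means, in at least 1 cell type, 21 did not, and 2 of those 21 (Slc1a6 and Slc7a12) were listed at 0 throughout. Members together held 0.242% of the summed means in osteoclasts, 0.311% in dendritic cells and 0.299% in macrophages. Among the 24 measured at 1 CPM or more, 6 were highest in osteoclasts, 11 in dendritic cells and 7 in macrophages. In osteoclasts against macrophages, 33 members were tested, of which 7 were higher and 10 lower, per the authors' deposited table. That is 51.5% called, against 29.3% of all 17822 genes tested (14.5% higher and 14.7% lower). In osteoclasts against dendritic cells, 6 of 39 members were higher and 11 lower, per the authors' deposited table, or 43.6% called against 36.9% of all 21217 genes (16.8% higher and 20.1% lower). In dendritic cells against macrophages, 11 of 39 were higher and 5 lower, per the authors' deposited table, or 41% called against 36.7% of all 20730 genes (20.3% higher and 16.4% lower). The median log2 fold change of the members was 0.22 in the first of these comparisons, against −0.03 over all genes tested, −0.30 against −0.05 in the second and 0.15 against 0.05 in the third. Asking also for a 2-fold change left 4 higher and 5 lower in osteoclasts than in macrophages, where 5.52% and 6.54% of all genes passed. It left 2 higher and 8 lower in osteoclasts against dendritic cells (7.14% and 13.4% of all genes) and 9 higher and 2 lower in dendritic cells against macrophages (12.8% and 7.4% of all genes). Over all tested members, the shares called at any size in the 2 comparisons with dendritic cells thus stood near the shares of all genes. Among the 24 members at 1 CPM or more, 58.3% were called in each of the 3 comparisons. The share of all genes at that level was not counted.

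**Figure D1:**
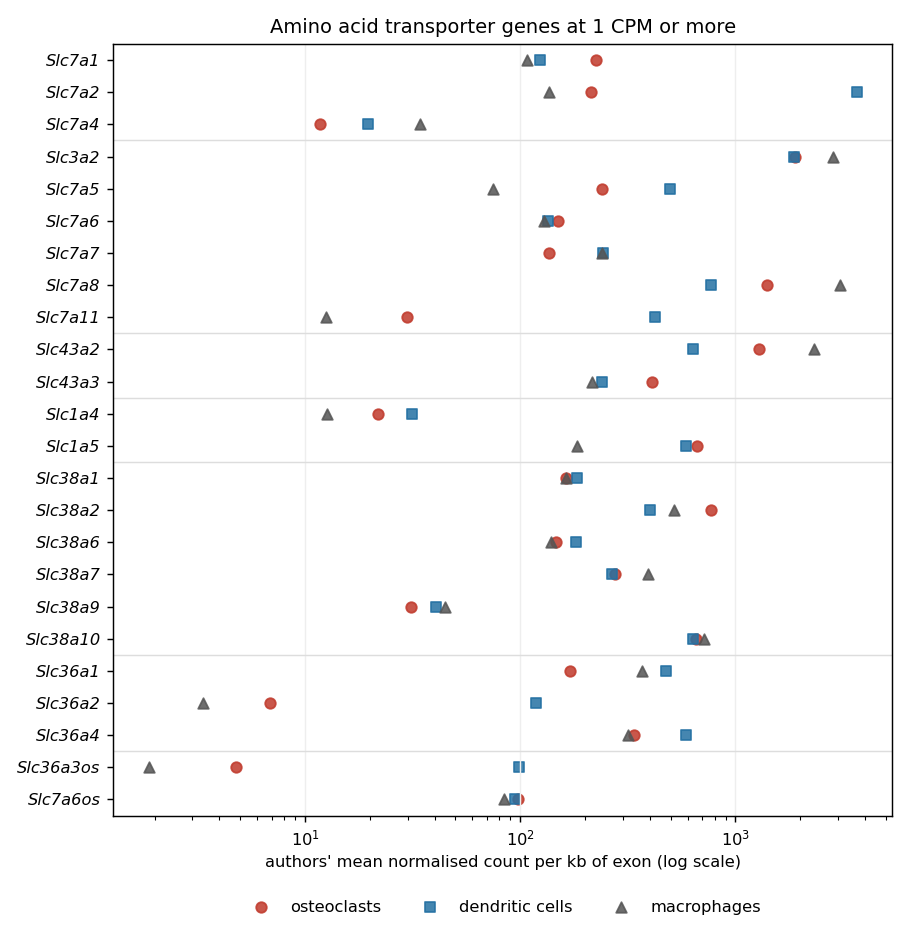
Authors' mean normalised count per kilobase of exon (horizontal log axis) of the 24 members at 1 CPM or more, grouped by role, in osteoclasts (circles), dendritic cells (squares) and macrophages (triangles). Slc7a2 stands at 214 in osteoclasts, 3673 in dendritic cells and 136 in macrophages, while the 3 points of Slc38a1 lie between 163 and 184.

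Among the cationic carriers, which take up arginine, lysine and ornithine, the largest differences were those of 1 gene in dendritic cells. Slc7a2 (CAT2, chr8:40862396-40922308 in GRCm38, plus strand) had authors' means of 1952 in osteoclasts, 33552 in dendritic cells and 1240 in macrophages, per the authors' deposited table. It was 17-fold higher in dendritic cells than in macrophages (log2 fold change 4.09 ± 0.76, authors' adjusted p = 5.23e-07) and 11.6-fold lower in osteoclasts than in dendritic cells (−3.54 ± 0.76, authors' adjusted p = 1.81e-05), per the authors' deposited table. Between osteoclasts and macrophages it was not called, with 0.54 ± 0.76 on the log2 scale, per the authors' deposited table (authors' adjusted p = 0.657). Its SE of 0.76 was the widest among the members at 1 CPM or more in osteoclasts against dendritic cells, and libraries could not be worked back at this level. Per kilobase of exon it stood at 214 in osteoclasts, 3673 in dendritic cells and 136 in macrophages, and in dendritic cells no other member at 1 CPM or more stood as high. Of the summed counts per kilobase of Slc7a1, Slc7a2 and Slc7a3, it made up 48.5% in osteoclasts, 96.7% in dendritic cells and 55.1% in macrophages.

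Slc7a1 (CAT1, chr5:148327410-148399904, minus strand), the housekeeping arginine and lysine carrier, was instead highest in osteoclasts. Its authors' means were 2612 in osteoclasts, 1428 in dendritic cells and 1239 in macrophages, per the authors' deposited table. It was higher in osteoclasts than in macrophages by 1.06 ± 0.29 on the log2 scale (authors' adjusted p = 0.0021) and higher than in dendritic cells by 0.85 ± 0.29 (authors' adjusted p = 0.0122), per the authors' deposited table. Per kilobase, Slc7a1 and Slc7a2 were close to each other in osteoclasts (226 and 214) and in macrophages (107 and 136), whereas in dendritic cells Slc7a2 stood at 3673 and Slc7a1 at 124.

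Slc7a4 (chr16:17572018-17583214, minus strand), a relative of these carriers whose own transport activity is not settled, had the reverse order. It had 38.7, 61.6, 46.1 and 47.4 normalised reads in osteoclast libraries a to d, 110, 55, 97 and 63.6 in dendritic cell libraries and 114, 162, 138 and 153 in macrophage libraries. Both the osteoclast and the dendritic cell libraries lay below every macrophage library, while osteoclast and dendritic cell libraries overlapped. Its level was 2.89-fold lower in osteoclasts than in macrophages (log2 fold change −1.53 ± 0.25, authors' adjusted p = 2.07e-08), per the authors' deposited table. It was lower by smaller amounts in dendritic cells than in macrophages (−0.79 ± 0.24, authors' adjusted p = 0.00396) and in osteoclasts than in dendritic cells (−0.74 ± 0.26, authors' adjusted p = 0.0129), per the authors' deposited table. The last of these calls was lost in limma on the recovered reads (adjusted p = 0.0651) and when the totals of the cell types were made equal (adjusted p = 0.0763). The call in dendritic cells against macrophages held in limma on all libraries (adjusted p = 0.028). It was lost without macrophage library b, c or d (limma adjusted p = 0.0809, 0.0549 and 0.0744) or without dendritic cell library b or d (limma adjusted p = 0.0736 and 0.0857). P2rx6 covers 13.3% of the exon bases of Slc7a4 on the opposite strand, with authors' means of 1.75 in osteoclasts, 16.6 in dendritic cells and 10.7 in macrophages, per the authors' deposited table.

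Of the genes that make or use arginine, Arg1 and Ass1 were called in the same direction as Slc7a2 in both comparisons with dendritic cells. Of 17 tested genes of arginine and ornithine metabolism, 4 were higher and 3 lower in osteoclasts than in macrophages (all genes 14.5% and 14.7%). In osteoclasts against dendritic cells 6 were higher and 4 lower (all genes 16.8% and 20.1%). In dendritic cells against macrophages 4 were higher and 5 lower (all genes 20.3% and 16.4%). The median log2 fold changes were −0.03, −0.10 and 0.00 in these comparisons. Arg1, the arginase of the urea cycle, had authors' means of 68.16 in osteoclasts, 41909 in dendritic cells and 51.62 in macrophages, and was higher in dendritic cells than in macrophages by 9.35 ± 0.39 on the log2 scale, per the authors' deposited table (authors' adjusted p = 3.03e-124). Ass1, which makes the arginine precursor argininosuccinate, had authors' means of 3640 in osteoclasts, 16673 in dendritic cells and 941.1 in macrophages, per the authors' deposited table. Ass1 was higher in osteoclasts than in macrophages by 1.94 ± 0.19 (authors' adjusted p = 1.87e-21) and higher in dendritic cells than in macrophages by 4.11 ± 0.19 on the log2 scale (authors' adjusted p = 4.79e-98), per the authors' deposited table. Arg1 is also known from human neutrophils, and the neutrophil and eosinophil markers were high in the same dendritic cell cultures. Their part in these differences was not tested.

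The heavy chain Slc3a2 (CD98, chr19:8706882-8723369, minus strand) was abundant throughout and highest in macrophages. Its authors' means were 6707 in osteoclasts, 6629 in dendritic cells and 10061 in macrophages, per the authors' deposited table. It was lower in osteoclasts than in macrophages (log2 fold change −0.58 ± 0.13, authors' adjusted p = 3.5e-05) and lower in dendritic cells than in macrophages (−0.60 ± 0.13, authors' adjusted p = 9.9e-06), per the authors' deposited table. Osteoclasts and dendritic cells differed by 0.02 ± 0.13 (authors' adjusted p = 0.942), per the authors' deposited table. The 5 light chains of Slc3a2 together came to 1957 counts per kilobase in osteoclasts, 2069 in dendritic cells and 3517 in macrophages, beside 1901, 1878 and 2851 for the heavy chain in the same cell types. The sum of light chains was thus 1.03 times the heavy chain in osteoclasts, 1.1 times in dendritic cells and 1.23 times in macrophages.

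**Figure D2:**
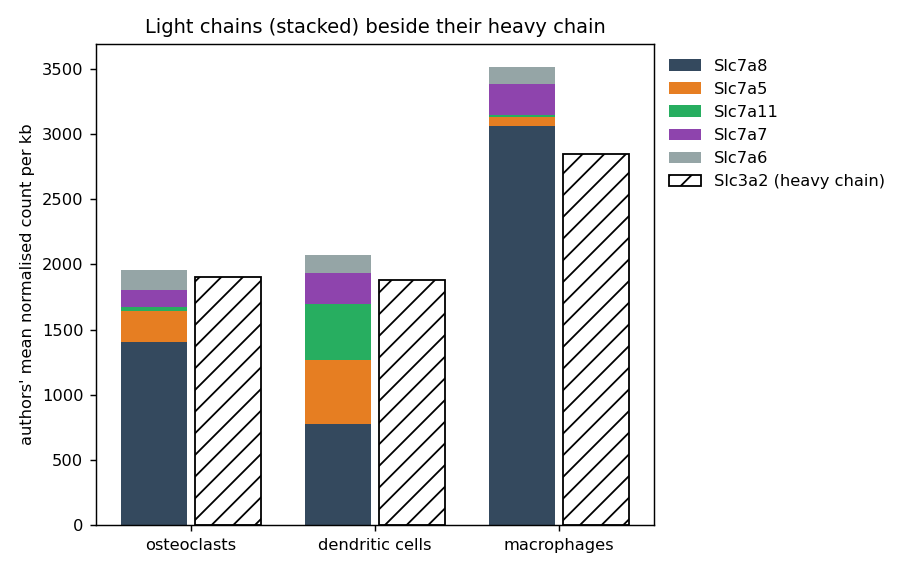
Authors' mean normalised counts per kilobase of exon (vertical axis) of the 5 Slc7 light chains, stacked, beside their heavy chain Slc3a2 (hatched), in osteoclasts, dendritic cells and macrophages. Slc7a8 makes up 71.6%, 37.4% and 87% of the light chains in these cell types, and in dendritic cells Slc7a5 makes up 24% and Slc7a11 20.4%.

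The light chains were made up in different proportions. Slc7a8 (LAT2), a carrier of large and small neutral amino acids, was the main light chain: 71.6% of the light-chain counts per kilobase in osteoclasts, 37.4% in dendritic cells and 87% in macrophages. Slc7a5 (LAT1), which favours leucine and other large neutral amino acids, made up 12.2% in osteoclasts and 24% in dendritic cells, and in macrophages 74.9 of the 3517 counts per kilobase. The cystine carrier Slc7a11 made up 1.53%, 20.4% and 0.355% in osteoclasts, dendritic cells and macrophages. Slc7a7 and Slc7a6 (y+LAT1 and y+LAT2), which send out basic amino acids in exchange for neutral ones, made up 6.95% and 7.67% in osteoclasts, 11.7% and 6.48% in dendritic cells, and 6.85% and 3.67% in macrophages.

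Slc7a8 (chr14:54722209-54781946, minus strand) had authors' means of 7017 in osteoclasts, 3870 in dendritic cells and 15313 in macrophages, per the authors' deposited table. It was lower in osteoclasts than in macrophages (log2 fold change −1.11 ± 0.24, authors' adjusted p = 3.3e-05), higher in osteoclasts than in dendritic cells (0.85 ± 0.24, authors' adjusted p = 0.00155) and lower in dendritic cells than in macrophages (−1.96 ± 0.24, authors' adjusted p = 2.87e-15), per the authors' deposited table. Slc7a5 (chr8:121881150-121907694, minus strand) ran in the opposite order. It had 953, 874, 1097 and 617 normalised reads in osteoclast libraries a to d, against 55.6, 379, 274 and 403 in macrophage libraries, and an authors' mean of 1841 in dendritic cells, per the authors' deposited table. Every osteoclast library lay above every macrophage library, and macrophage library a was far below its fellows: the macrophage mean was 278 with it and 352 without it. Slc7a5 was 3.05-fold higher in osteoclasts than in macrophages (log2 fold change 1.61 ± 0.40, authors' adjusted p = 0.000446) and 6.19-fold higher in dendritic cells than in macrophages (2.63 ± 0.40, authors' adjusted p = 4.52e-10), per the authors' deposited table. In osteoclasts it was lower than in dendritic cells (−1.02 ± 0.40, authors' adjusted p = 0.0305), per the authors' deposited table, a call that was lost when the totals were made equal (adjusted p = 0.0853). In limma on the recovered reads the difference between osteoclasts and macrophages was 1.97 on the log2(normalised reads + 1) scale (adjusted p = 0.0203). It missed the threshold without osteoclast library a, b or c (adjusted p = 0.0585, 0.0542 and 0.0718).

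Slc7a7 (chr14:54369442-54417780, minus strand) was lower in osteoclasts than in both other cell types, with fewer reads and wide spread. It had 395, 371, 377 and 658 normalised reads in osteoclast libraries a to d, 617, 700, 745 and 1153 in dendritic cell libraries and 785, 1034, 406 and 969 in macrophage libraries. The libraries of all 3 cell types overlapped, the osteoclast ones through library d alone: the osteoclast mean was 450 with it and 381 without it. Its log2 fold change was −0.81 ± 0.30 in osteoclasts against macrophages (authors' adjusted p = 0.0259) and −0.82 ± 0.30 in osteoclasts against dendritic cells (authors' adjusted p = 0.0187), per the authors' deposited table. Neither call held under every setting: the first had an adjusted p of 0.077 in limma on the recovered reads, and the second one of 0.0812 with the totals made equal. The gene shares 7% of its exon bases with Oxa1l on the opposite strand, whose authors' means were 1610 in osteoclasts, 1270 in dendritic cells and 1450 in macrophages, per the authors' deposited table. Slc7a6 was called in no comparison; its libraries ran from 474 to 877 normalised reads in osteoclasts, 535 to 726 in dendritic cells and 447 to 857 in macrophages.

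The cystine carrier Slc7a11 (xCT, chr3:49892526-50443614, minus strand) takes up cystine for glutathione and sends out glutamate, and is known as a target of the transcription factors ATF4 and NRF2. Its promoter is printed because Slc7a11 and Slc1a4 are 2 of the 3 members at 1 CPM or more that hold the core of the amino acid response element bound by ATF4 (TGATGNAA, either strand) within 250 bases before and 50 after a RefSeq start; Slc7a7 is the third. Of those members 17 had a promoter in the RefSeq table (GRCm38.p6), and of all 32851 promoters there 3.97% hold this core. Capitals mark every match to it and, in Slc7a11, the first capitals mark the core bound by STAT factors (TTCNNNGAA), held by 8.3% of promoters. Slc7a1 and Slc38a9 hold this STAT core as well, and neither was called higher in dendritic cells. Of the same 17 members, 4 hold the core of the NRF2 element (TGACNNNGC, either strand, in 12.4% of promoters), and Slc7a11 is not among them. The sequences run 5′ to 3′ on the gene's strand and end 20 bases into the transcript, at chr3:50443594-50443863 and chr11:20332694-20332963, both on the minus strand.
Slc7a11: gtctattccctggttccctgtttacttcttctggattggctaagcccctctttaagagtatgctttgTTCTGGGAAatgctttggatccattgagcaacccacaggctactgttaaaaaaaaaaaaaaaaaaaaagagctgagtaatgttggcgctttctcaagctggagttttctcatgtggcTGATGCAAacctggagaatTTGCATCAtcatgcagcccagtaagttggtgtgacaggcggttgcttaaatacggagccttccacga
Slc1a4: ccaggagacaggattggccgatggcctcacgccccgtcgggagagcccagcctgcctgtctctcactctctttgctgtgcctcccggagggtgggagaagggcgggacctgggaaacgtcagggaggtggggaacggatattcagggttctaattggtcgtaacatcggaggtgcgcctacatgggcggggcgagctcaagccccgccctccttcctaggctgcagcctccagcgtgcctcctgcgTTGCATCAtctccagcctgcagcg
Slc7a11 holds the element core 2 times, once on each strand, at −66 to −59 and −47 to −40 from the start, and Slc1a4 once, across the start at −4 to 4. Slc7a7, not printed, holds the core 2 times, at −141 to −134 and −1 to 7 from a RefSeq start. The match at −1 to 7 is the same stretch that lies at −243 to −236 from another RefSeq start. Slc7a7 was not called in dendritic cells against macrophages (log2 fold change 0.01 ± 0.30, authors' adjusted p = 0.987), per the authors' deposited table. A match of letters describes the sequence and is not evidence of binding.

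Slc7a11 was among the members most set apart in dendritic cells. Its authors' mean there was 5894, per the authors' deposited table, while osteoclast libraries a to d had 503, 573, 251 and 337 normalised reads and macrophage libraries 160, 62.3, 417 and 59. Osteoclast and macrophage libraries overlapped through macrophage library c, without which the macrophage mean was 93.8 in place of 175. Slc7a11 was 25.3-fold higher in dendritic cells than in macrophages (log2 fold change 4.66 ± 0.59, authors' adjusted p = 5.61e-14) and 11.5-fold lower in osteoclasts than in dendritic cells (−3.52 ± 0.59, authors' adjusted p = 2.35e-08), per the authors' deposited table. Between osteoclasts and macrophages the log2 fold change was 1.14 ± 0.59 and was not called (authors' adjusted p = 0.143), per the authors' deposited table. Limma on the recovered reads gave an adjusted p of 0.0534 for that pair, and 0.00319 without macrophage library c. The neutrophil and eosinophil marker sums were higher in dendritic cells in both of the called comparisons, and their part in them was not tested.

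Genes of glutathione synthesis, use and breakdown and other NRF2 targets were counted beside it. The list also held Nfe2l2, the gene of NRF2 itself, and its regulators Keap1 and Bach1. Of 19 tested, 8 were higher and 3 lower in osteoclasts than in macrophages (all genes 14.5% and 14.7%). In osteoclasts against dendritic cells 4 were higher and 6 lower (all genes 16.8% and 20.1%). In dendritic cells against macrophages 10 were higher and 4 lower (all genes 20.3% and 16.4%). The median log2 fold changes were 0.25, −0.16 and 0.40 in these comparisons. Gss, which joins glycine to complete glutathione, had authors' means of 597 in osteoclasts, 837.6 in dendritic cells and 333 in macrophages and was higher in dendritic cells than in macrophages by 1.33 ± 0.13 on the log2 scale, per the authors' deposited table (authors' adjusted p = 4.53e-22). Gsr, glutathione reductase, and the thioredoxin Txn1 were higher in osteoclasts than in macrophages by 0.81 ± 0.11 and 1.11 ± 0.16 (authors' adjusted p = 4.61e-11 and 1.12e-10), per the authors' deposited table. Hmox1, haem oxygenase and a further NRF2 target, went the other way, with authors' means of 8572 in osteoclasts, 14085 in dendritic cells and 26694 in macrophages, per the authors' deposited table. Hmox1 was lower in osteoclasts than in macrophages (log2 fold change −1.63 ± 0.18, authors' adjusted p = 2.99e-18), per the authors' deposited table.

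Slc43a2 (LAT4, chr11:75531694-75577575, plus strand), a uniporter of branched-chain amino acids, phenylalanine and methionine that needs no heavy chain, followed the order of Slc7a8. Its authors' means were 12893 in osteoclasts, 6342 in dendritic cells and 23221 in macrophages, per the authors' deposited table. Per kilobase these came to 1284, 632 and 2312 in the same cell types. It was lower in osteoclasts than in macrophages (log2 fold change −0.84 ± 0.18, authors' adjusted p = 5.11e-05), 2.02-fold above dendritic cells in osteoclasts (1.02 ± 0.18, authors' adjusted p = 2.75e-07) and 3.63-fold lower in dendritic cells than in macrophages (−1.86 ± 0.18, authors' adjusted p = 1.63e-22), per the authors' deposited table. Slc43a3, whose known substrates are purine nucleobases and not amino acids, was higher in osteoclasts than in macrophages by 0.91 ± 0.29 (authors' adjusted p = 0.00703) and than in dendritic cells by 0.77 ± 0.29 on the log2 scale (authors' adjusted p = 0.0222), per the authors' deposited table. Its macrophage libraries had 387, 1076, 1167 and 1217 normalised reads, library a again the lowest, and their mean was 962 with that library and 1153 without it.

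Of the sodium-coupled carriers of small neutral amino acids, Slc1a5 (ASCT2, chr7:16781340-16798274, plus strand), which brings in glutamine by exchange, was lowest in macrophages. Its authors' means were 2765 in osteoclasts and 2472 in dendritic cells, per the authors' deposited table, and macrophage libraries a to d had 485, 876, 840 and 871 normalised reads. Slc1a5 was 3.54-fold higher in osteoclasts than in macrophages (log2 fold change 1.82 ± 0.24, authors' adjusted p = 1.65e-12) and 3.17-fold higher in dendritic cells than in macrophages (1.66 ± 0.24, authors' adjusted p = 5.33e-11), per the authors' deposited table. Osteoclasts and dendritic cells differed by 0.16 ± 0.24 on the log2 scale (authors' adjusted p = 0.666), per the authors' deposited table. Without macrophage library a the macrophage mean was 862 in place of 768.

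Slc1a4 (ASCT1), the serine and alanine relative whose promoter was printed with that of Slc7a11, had 85.4, 89.4, 116 and 52.4 normalised reads in osteoclast libraries a to d, 63.1, 153, 120 and 159 in dendritic cell libraries and 23, 52.6, 74.1 and 49.1 in macrophage libraries. Libraries of all 3 cell types overlapped. It was higher in dendritic cells than in macrophages by 1.28 ± 0.36 on the log2 scale (authors' adjusted p = 0.00157), per the authors' deposited table. In limma on the recovered reads the adjusted p for that pair was 0.0216, and it was 0.0732, 0.0638 and 0.0798 without dendritic cell library b, c or d.

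Of the 6 Slc38 carriers at 1 CPM or more, 1 was highest in osteoclasts, 2 in dendritic cells and 3 in macrophages. Slc38a2 (SNAT2), a sodium-coupled carrier that rises in many cells when amino acids run short, was the one member of the family higher in osteoclasts than in both other cell types. Its authors' means were 6775 in osteoclasts, 3555 in dendritic cells and 4571 in macrophages, with log2 fold changes of 0.56 ± 0.16 in osteoclasts against macrophages (authors' adjusted p = 0.00251) and 0.93 ± 0.16 in osteoclasts against dendritic cells (authors' adjusted p = 5.77e-08), per the authors' deposited table. Dendritic cells against macrophages gave −0.36 ± 0.16, with an authors' adjusted p of 0.0629, per the authors' deposited table, which became 0.005 with the totals made equal. Slc38a7, a lysosomal carrier of glutamine and asparagine, was lower in osteoclasts than in macrophages by a log2 fold change of −0.51 ± 0.14 (authors' adjusted p = 0.00212) and in dendritic cells than in macrophages by −0.54 ± 0.14 (authors' adjusted p = 0.000512), per the authors' deposited table.

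Slc38a9, the lysosomal arginine sensor of mTORC1, had 462, 560, 551 and 512 normalised reads in osteoclast libraries a to d, 554, 806, 611 and 755 in dendritic cell libraries and 941, 638, 692 and 728 in macrophage libraries. Every osteoclast library lay below every macrophage library, and the dendritic cell libraries overlapped both. Its log2 fold change in osteoclasts against macrophages was −0.52 ± 0.16 (authors' adjusted p = 0.00758), per the authors' deposited table. In limma on the recovered reads its adjusted p was 0.0196, and the call was lost without osteoclast library a (limma adjusted p = 0.0619). Slc38a1, Slc38a6 and Slc38a10 were called in no comparison. Their authors' means ran from 2811 to 3178, from 1080 to 1405 and from 4096 to 4608 over the 3 cell types, per the authors' deposited table. For Slc38a6, 35.5% of the 50-base stretches of its transcripts also occur in other genes, so its value depends on how such reads were counted.

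**Figure D3:**
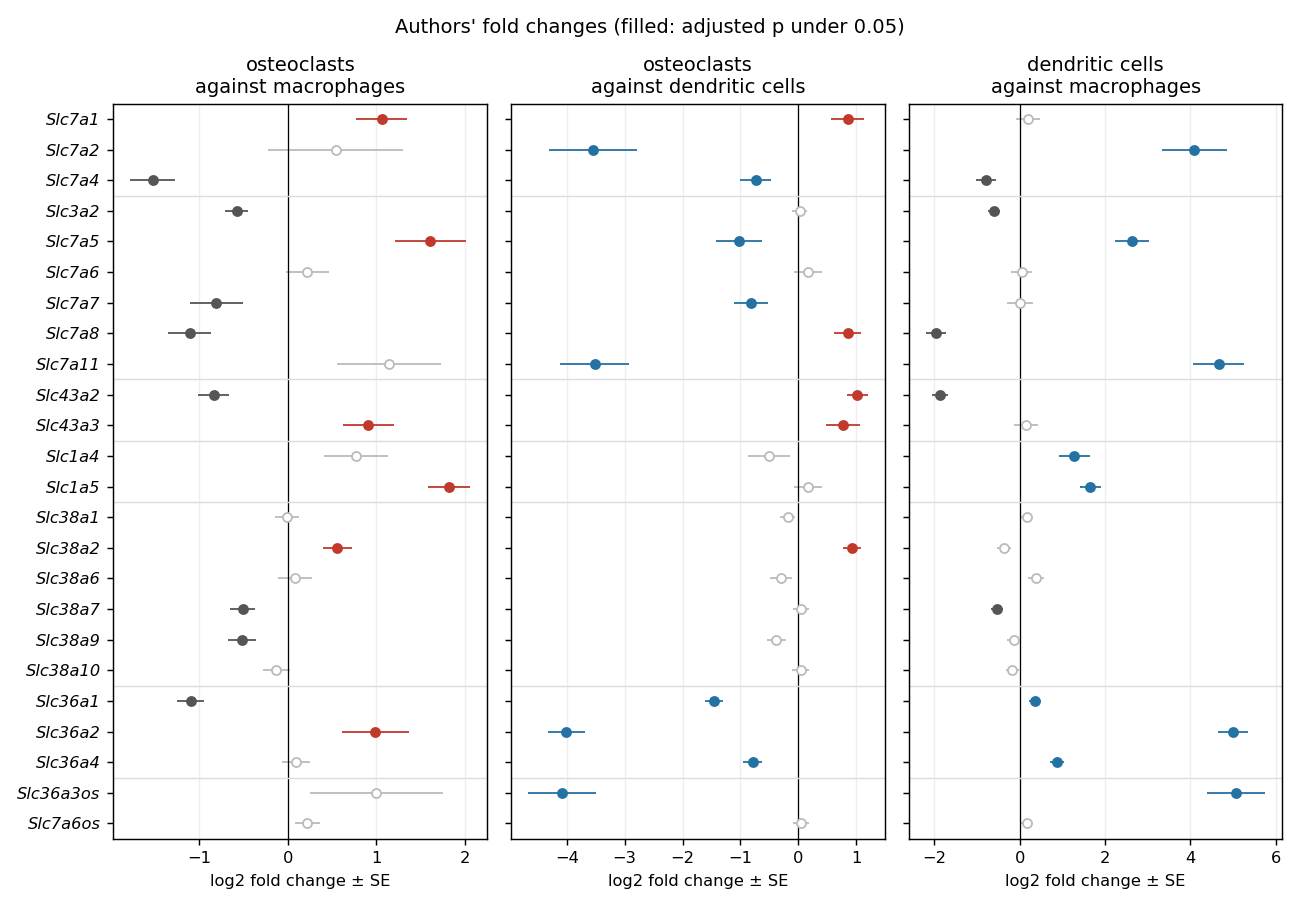
Authors' log2 fold changes (horizontal axes, 1 panel per comparison, each with its own scale) of the 24 members at 1 CPM or more, with the SE implied by the p-value. Filled points have an authors' adjusted p under 0.05 and take the colour of the higher cell type (red osteoclasts, blue dendritic cells, grey macrophages). Slc7a2, Slc7a11, Slc36a2 and Slc36a3os lie farthest to the dendritic cell side in both panels that hold dendritic cells.

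All 4 carriers of the proton-coupled Slc36 family were called higher in dendritic cells than in macrophages and lower in osteoclasts than in dendritic cells, per the authors' deposited table. Of all genes tested, 20.3% were called higher in the first of these comparisons and 20.1% lower in the second. One of the carriers, Slc36a3, was under 1 CPM. Slc36a1 (PAT1), which exports small amino acids such as proline, glycine and alanine from lysosomes, had 1005, 1122, 815 and 910 normalised reads in osteoclast libraries a to d, and authors' means of 2667 in dendritic cells and 2070 in macrophages, per the authors' deposited table. It was 2.14-fold lower in osteoclasts than in macrophages (log2 fold change −1.10 ± 0.15, authors' adjusted p = 3.99e-11) and 2.75-fold lower in osteoclasts than in dendritic cells (−1.46 ± 0.15, authors' adjusted p = 5.56e-20), per the authors' deposited table. The smaller difference between dendritic cells and macrophages (0.36 ± 0.15, authors' adjusted p = 0.0485, per the authors' deposited table) was lost with the totals made equal (adjusted p = 0.29). The promoter of Slc36a1 is printed because it and Slc38a7, both carriers of the lysosome, are the only members at 1 CPM or more with a promoter in the RefSeq table that hold the E-box CACGTG (either strand), the core of the element bound by the lysosome regulators of the TFEB family. That E-box occurs in 7.15% of all promoters of the table, and 2 of the 17 members at 1 CPM or more with a promoter there hold it. Slc38a9, also of the lysosome, holds none in its promoter. The members Slc1a6, Slc1a7, Slc38a5, Slc43a1 and Slc7a14, all under 1 CPM, hold it too. The stretch printed is chr11:55204090-55204359 in GRCm38.p6, plus strand, and ends 20 bases into the transcript. Capitals mark the 2 E-boxes, at −31 to −26 and −3 to 3, the second running into a core of the NRF2 element (TGACNNNGC, either strand, in 12.4% of promoters) at 2 to 10.
Slc36a1: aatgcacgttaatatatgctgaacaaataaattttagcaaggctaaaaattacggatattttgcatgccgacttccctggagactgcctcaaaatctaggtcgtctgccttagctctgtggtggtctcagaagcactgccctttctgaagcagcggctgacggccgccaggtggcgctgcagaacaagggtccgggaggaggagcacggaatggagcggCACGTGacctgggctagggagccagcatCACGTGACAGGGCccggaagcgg
The match describes these letters and says nothing of which factor is bound.

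Slc36a1 ends a cluster on chromosome 11 (55124815 to 55236330, 112 kb) that holds 5 genes of the GENCODE M21 annotation, all of them members: Slc36a3, Slc36a3os, Slc36a2, Slc36a1os and Slc36a1. Slc36a2 (PAT2, chr11:55158470-55185077, minus strand), a carrier of glycine, alanine and proline, had 19.9, 30.8, 15 and 24.2 normalised reads in osteoclast libraries a to d, 270, 372, 349 and 541 in dendritic cell libraries and 2.88, 12.7, 16.6 and 11.8 in macrophage libraries. Every dendritic cell library lay far above all others, and osteoclast and macrophage libraries overlapped. Slc36a2 was 31.9-fold higher in dendritic cells than in macrophages (log2 fold change 4.99 ± 0.35, authors' adjusted p = 1.95e-44) and 16.1-fold lower in osteoclasts than in dendritic cells (−4.01 ± 0.32, authors' adjusted p = 6.15e-34), per the authors' deposited table. The call between osteoclasts and macrophages (0.99 ± 0.38, authors' adjusted p = 0.0323, per the authors' deposited table) was lost in limma on the recovered reads (adjusted p = 0.125).

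Slc36a3os, an antisense gene of the cluster, had 4.97, 2.98, 0 and 2.02 normalised reads in osteoclast libraries a to d. It had 35.6, 36.6, 38.8 and 94.4 in dendritic cell libraries and 0, 1.95, 0.974 and 0.983 in macrophage libraries. All dendritic cell libraries lay above all others, library d with more than any other and a mean of 37 without it in place of 51.4. Slc36a3os was higher in dendritic cells than in macrophages (log2 fold change 5.08 ± 0.68, authors' adjusted p = 7.18e-13) and lower in osteoclasts than in dendritic cells (−4.08 ± 0.59, authors' adjusted p = 4.99e-11), per the authors' deposited table. Slc36a3, under 1 CPM and named for its place in the cluster after its values were seen, had 19.3, 12.2, 23.5 and 26.7 normalised reads in dendritic cell libraries and at most 11 in any library of the others. Slc36a1os, the other antisense gene of the cluster, was under 1 CPM and called in no comparison. Its authors' means were 7.227 in osteoclasts, 2.561 in dendritic cells and 3.65 in macrophages, per the authors' deposited table. The sources used here do not say whether counting used the strand of the reads. Slc36a4 (PAT4), on chromosome 9 and outside the cluster, was higher in dendritic cells than in macrophages by 0.88 ± 0.16 (authors' adjusted p = 1.59e-07) and, at a log2 fold change of −0.79 ± 0.16 (authors' adjusted p = 3.33e-06), lower in osteoclasts than in dendritic cells, per the authors' deposited table. The neutrophil and eosinophil marker sums given above were higher in dendritic cells in both comparisons that hold dendritic cells. Their part in the differences of those comparisons was not tested.

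**Figure D4:**
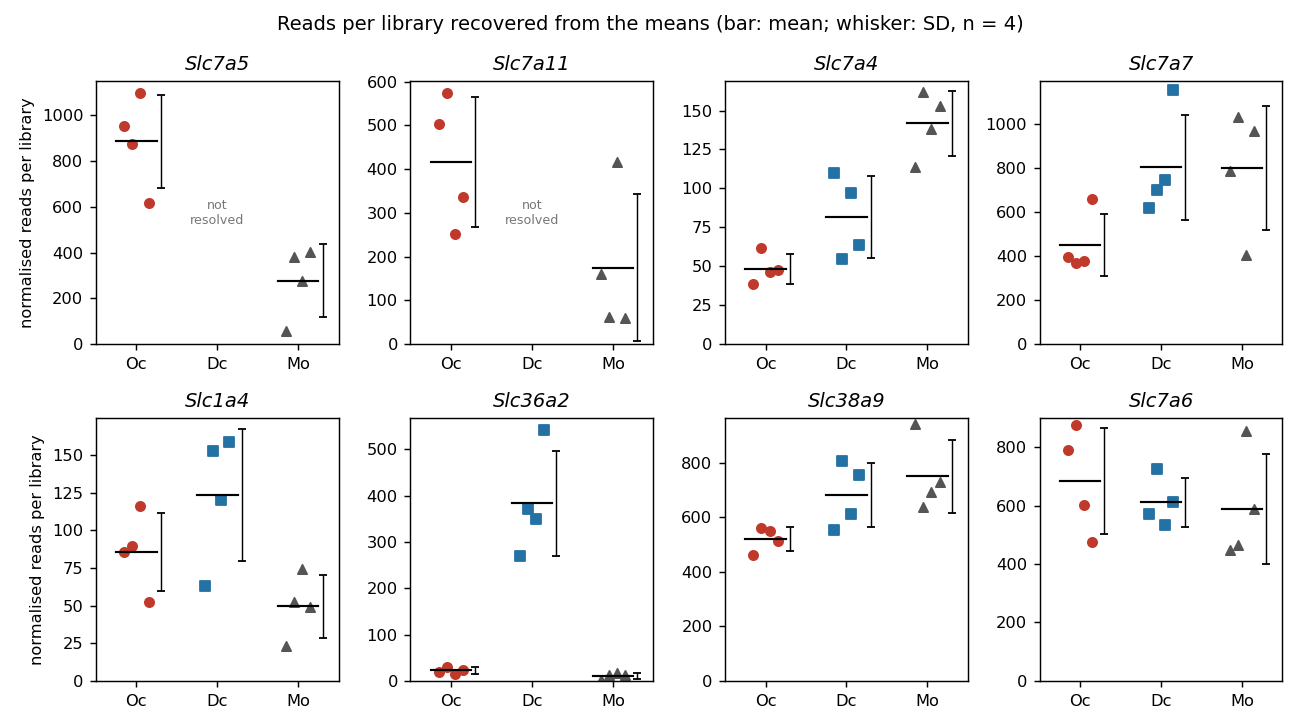
Normalised reads per library (vertical axes, 1 panel per gene, each with its own scale) worked back from the authors' means for 8 members, in osteoclasts (Oc), dendritic cells (Dc) and macrophages (Mo). Points are the 4 libraries, the bar their mean and the whisker the SD (n = 4), and "not resolved" marks a mean above 1000. Osteoclast and macrophage libraries separate for Slc7a5, Slc7a4 and Slc38a9 and overlap in the other 5 panels. The 8 members were picked for display, and the share of all genes whose libraries separate was not counted.

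The 21 members under 1 CPM were Slc1a1, Slc1a2, Slc1a3, Slc1a6, Slc1a7, Slc3a1, Slc7a3, Slc7a9, Slc7a10, Slc7a12, Slc7a13, Slc7a14, Slc7a15, Slc36a3, Slc36a1os, Slc38a3, Slc38a4, Slc38a5, Slc38a8, Slc38a11 and Slc43a1. They include the neuronal and renal carriers of these families, such as the glutamate carrier Slc1a2 and the cystine carrier pair Slc3a1 and Slc7a9. The highest mean among them was 20.4, per the authors' deposited table, 4 reached a mean of 10 in some cell type, and 14 stayed under 3 everywhere. Of those tested, 1 of 9 was higher and 2 were lower in osteoclasts than in macrophages (Slc36a3, and Slc7a3 and Slc7a15), per the authors' deposited table. In osteoclasts against dendritic cells 1 of 15 was higher and 2 were lower (Slc7a14, and Slc36a3 and Slc38a4), and in dendritic cells against macrophages 2 of 15 were higher and 0 lower (Slc36a3 and Slc38a4), per the authors' deposited table from DESeq2. Among all genes tested 14.5% were higher and 14.7% lower in osteoclasts against macrophages. The shares were 16.8% and 20.1% in osteoclasts against dendritic cells, and 20.3% and 16.4% in dendritic cells against macrophages. At an unadjusted p under 0.05, 2 of the 15 were lower in dendritic cells against macrophages. These calls rest on few reads: Slc7a14 had 45 reads over the osteoclast libraries against 5 over the dendritic cell libraries, and Slc38a4 had 19 over the dendritic cell libraries, against 0 and 1 over those of osteoclasts and macrophages.

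Lists of genes that work with the carriers were counted in the same comparisons. Beside each count below stand the shares of all genes tested. These were 14.5% higher and 14.7% lower in osteoclasts against macrophages, and 16.8% and 20.1% in osteoclasts against dendritic cells. In dendritic cells against macrophages they were 20.3% and 16.4%. Of the 20 cytosolic aminoacyl-tRNA synthetases, which load amino acids for protein synthesis, 17 were higher and 0 lower in osteoclasts than in macrophages, 14 higher and 0 lower in osteoclasts than in dendritic cells, and 2 higher and 2 lower in dendritic cells than in macrophages, per the authors' deposited table from DESeq2. At an unadjusted p under 0.05 the counts were 17 higher and 0 lower, and 15 higher and 0 lower, in the comparisons with osteoclasts. Their median log2 fold changes were 0.52, 0.55 and 0.04 in these comparisons, against −0.03, −0.05 and 0.05 over all genes tested. The isoleucine enzyme Iars, for one, had authors' means of 5309 in osteoclasts, 2719 in dendritic cells and 3173 in macrophages, with a log2 fold change of 0.74 ± 0.16 in osteoclasts against macrophages (authors' adjusted p = 2.6e-05), per the authors' deposited table. Among 22 genes of the ATF4 amino acid response, 9 were higher and 2 lower in osteoclasts than in macrophages, 7 and 7 in osteoclasts against dendritic cells, and 11 and 0 in dendritic cells against macrophages by the authors' DESeq2 (12 and 0 at an unadjusted p under 0.05). Their medians were 0.60, −0.14 and 0.64 on the log2 scale. Asns, asparagine synthetase, was higher in osteoclasts than in dendritic cells (authors' means 2186 and 686.6) by 1.64 ± 0.31 on the log2 scale (authors' adjusted p = 8.85e-07), per the authors' deposited table. Stc2, a secreted glycoprotein of stressed cells, had authors' means of 0.7525 in osteoclasts, 462.7 in dendritic cells and 0.2457 in macrophages, per the authors' deposited table.

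Of 32 genes of amino acid sensing by mTORC1, 2 were higher and 8 lower in osteoclasts than in macrophages, 9 higher and 4 lower in osteoclasts than in dendritic cells, and 3 higher and 11 lower in dendritic cells than in macrophages, with medians of −0.10, 0.09 and −0.16 on the log2 scale. The leucine sensor genes were among them: Sesn2 had authors' means of 630 in osteoclasts, 1869 in dendritic cells and 1251 in macrophages, while its relative Sesn1 had 1723, 512.3 and 4902 in the same order, per the authors' deposited table. Sesn1 was lower in osteoclasts than in macrophages (log2 fold change −1.49 ± 0.24, authors' adjusted p = 1.63e-08) and lower in dendritic cells than in macrophages (−3.22 ± 0.24, authors' adjusted p = 2.8e-38), per the authors' deposited table. Of 13 genes of glutamine and glutamate metabolism tested in osteoclasts against macrophages, 7 were higher and 0 lower by the authors' DESeq2, also at an unadjusted p under 0.05. Against dendritic cells it was 7 higher and 2 lower of 14, and in dendritic cells against macrophages 4 higher and 1 lower of 13; the medians were 0.37, 0.21 and 0.08. Glul, which makes glutamine, was higher in osteoclasts than in dendritic cells (authors' means 13693 and 5003) by 1.44 ± 0.23 on the log2 scale (authors' adjusted p = 5.32e-09), per the authors' deposited table.

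Carriers of other families were counted too, among them Slc29a3, which carries nucleosides. Of 17 tested carriers of the plasma membrane and lysosome outside the 6 families, 3 were higher and 2 lower in osteoclasts than in macrophages, and of 21 tested in the other pairs 6 were higher and 6 lower in osteoclasts than in dendritic cells and 7 higher and 5 lower in dendritic cells than in macrophages, with medians of 0.11, −0.02 and 0.09. Slc16a10, the carrier of aromatic amino acids, was lower in dendritic cells than in macrophages (authors' means 905.8 and 5163) with a log2 fold change of −2.50 ± 0.16 (authors' adjusted p = 1.43e-52), per the authors' deposited table. Slc15a3, a lysosomal carrier of histidine and small peptides, was lower in osteoclasts (authors' mean 2674) than in dendritic cells (9863), with a log2 fold change of −1.86 ± 0.21 (authors' adjusted p = 1.78e-17), per the authors' deposited table. The list of mitochondrial carriers was mostly of amino acids and also held the glutathione carriers Slc25a39 and Slc25a40. In osteoclasts against macrophages 3 of 13 were higher, Slc25a39 among them, and 0 lower. In osteoclasts against dendritic cells 2 of 14 were higher and 2 lower. In dendritic cells against macrophages 2 of 14 were higher and 1 lower. The medians were 0.28, 0.20 and 0.08. Branched-chain amino acid breakdown gave 3 higher and 0 lower of 20, 8 and 8 of 20, and 5 and 5 of 20 in the same comparisons, with medians of 0.06, 0.17 and 0.09. At an unadjusted p under 0.05 the authors' DESeq2 results held 5 higher and 0 lower mitochondrial carriers and 5 higher and 4 lower breakdown genes in osteoclasts against macrophages. For enzymes of tryptophan, tyrosine and proline the counts were 4 higher and 3 lower of 14, 3 and 7 of 17, and 5 and 1 of 17, with medians of −0.08, −0.22 and 0.32. Kynu, which breaks down the tryptophan product kynurenine, had authors' means of 8.47 in osteoclasts, 1249 in dendritic cells and 14.03 in macrophages, per the authors' deposited table.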

How the data were processed

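RNA was sequenced with a stranded mRNA library kit, per the labels' protocols. Bowtie2, TopHat2, Cufflinks 2.1.1, DESeq2 2.13 and GRCm38 are named in the submitters' processing notes; the sources used here do not give the annotation or whether counting used strand. The authors deposited 1 signal value per gene and cell type (a mean normalised count), log2 fold changes, p-values and adjusted p-values, with no value per library. The planned count test on libraries was therefore not used, and the authors' adjusted p is the main test. Fold changes were turned so that the cell type named first is the numerator, and an SE was taken from each two-sided p. The p-values rest on 4 libraries per cell type, from 4 marrow extractions. The implied SE of several members, such as Slc7a2 (0.76) and Slc7a8 (0.24), was the same in every comparison. That of others, such as Slc36a2, was not. A p-value may therefore also hold the spread of the cell type outside its comparison. The sources used here do not say whether the fit used the shared mouse of an extraction.

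Members and gene lists were chosen with earlier results of these data known. Members at 1 CPM of the summed means or more were named, with full statistics for the 10 called with at least a 2-fold change and 5 CPM in the higher cell type. Of each list, up to 3 genes per comparison with the smallest p among those called at 10 CPM or more could be named.

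A mean is a sum over 4 libraries of whole reads times a fixed weight, and this gave whole reads for 41078 of 41078 genes in osteoclasts, 41004 of 41007 in dendritic cells and 41111 of 41140 in macrophages with a mean up to 1000, only unique solutions being kept. Size factors ran from 0.975 to 1.043. Limma 3.58.1 (R 4.3.3) with a mean-variance trend was then run on log2(normalised reads + 1) over 13313 to 14230 genes per comparison; both steps were tested on simulated data. Lengths, overlaps and chromosome positions come from GENCODE M21 and promoters from RefSeq; 34 of 45 members had a promoter there. Python 3.11.15 with pandas 2.3.3 was used.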

Additional observations from a re-analysis of the deposited data

Results flagged for a closer look

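Within the 4 libraries of a cell type, 29 groups of members at 1 CPM or more with a recovered mean of at least 10 were examined for a library standing apart by Dixon's ratio at its 95% critical value, and 4 were flagged. Chance flags about 1 in 20 such groups. Slc1a5 had 485 normalised reads in macrophage library a, against 840 to 876 in the other macrophage libraries. Slc43a3 had 387 in the same library, against 1076 to 1217 in the others. Slc36a3os had 94.4 in dendritic cell library d, against 35.6 to 38.8 in the others. Slc7a7 had 658 in osteoclast library d, against 371 to 395 in the others. Over 5313 genes with a macrophage mean of 100 to 1000, macrophage library a was the highest in 32% and the lowest in 35.5%.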

How the results depend on the processing

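No called change of a member at 1 CPM or more changed direction under any alternative run. For members without library values in both cell types these runs could hardly have reversed a called change. They were other thresholds and adjustments, the ratio of the means, and a common shift of at most 0.19 on the log2 scale. Differences that were not called crossed 0 under another scaling or with a library left out for Slc36a4, Slc38a1, Slc38a6, Slc38a7, Slc38a10, Slc3a2, Slc7a6, Slc7a6os and Slc7a7; the last ran from −0.24 to 0.21 in dendritic cells against macrophages (main 0.01). With at least a 2-fold change asked for as well, members called in osteoclasts against macrophages were 4 higher (main 7) and 5 lower (main 10). With the same rule 2 were higher in osteoclasts than in dendritic cells (main 6) and 2 lower in dendritic cells than in macrophages (main 5). At an adjusted p under 0.01, 7 were lower in osteoclasts against dendritic cells (main 11). Among members with recovered reads, limma with a pseudocount of 1 or 0.5 called 3 lower in osteoclasts than in macrophages with either (main 5), 2 higher in osteoclasts than in dendritic cells (main 1) and 2 lower in dendritic cells than in macrophages (main 1). Leaving out 1 library at a time, limma called 0 to 4 higher (main 3) and 2 to 5 lower (main 5) in osteoclasts than in macrophages. The same runs gave 1 to 3 higher (main 1) and 4 to 7 lower (main 6) in osteoclasts than in dendritic cells, and 4 to 6 higher (main 5) and 1 to 2 lower (main 1) in dendritic cells than in macrophages. The 0 came without osteoclast library b or c. Making the totals of the cell types equal moved every log2 fold change by 0.05, 0.19 and −0.15 in osteoclasts against macrophages, osteoclasts against dendritic cells and dendritic cells against macrophages. The share of higher genes among all calls then was 55.9%, 61.4% and 42.8%, in place of 49.7%, 45.4% and 55.4%; with upper quartiles equal it was 36.5%, 37.9% and 54%. Members called with equal totals were 8 higher and 9 lower, 6 and 8, and 10 and 7 in that order. Slc36a2 in osteoclasts against macrophages fell below the 1 CPM filter where that was applied. With lengths of the longest coding transcript, an alternative chosen after seeing the data, Slc7a8 made up 71.7% of light-chain counts per kilobase in osteoclasts, 36.1% in dendritic cells and 86.1% in macrophages, and Slc7a2 40.4%, 95.5% and 47.6% of Slc7a1 and Slc7a2 together. The causes of these changes were not tested. No paired analysis was possible because the table holds means and the recovered libraries carry no replicate number. Members with means above 1000, among them Slc7a2, Slc7a8 and Slc43a2, have no library values here.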
